A study of Homo sapiens with 46 samples.

Results

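RNA bound to chromatin was compared with RNA of the cytoplasm in mesoderm cells grown from the H1 line, an established human pluripotent stem cell line. The comparison rests on 6 of the 46 libraries of the study, 3 labelled mesoderm chromatin and 3 labelled mesoderm cytoplasm, chosen by their titles. The study as a whole measured RNA in 16 groups, each a fraction (cytoplasm, nucleus, nucleoplasm or chromatin) of undifferentiated H1 cells (hPSC) or of ectoderm, endoderm or mesoderm cells derived from them. No genetic change is named for any group, and the parent line, the fractionation and the library kit are common to all of them. Mesoderm medium held serum, 100 ng/ml VEGF, 100 ng/ml BMP4 and 10 ng/ml bFGF, with 100 ng/ml Activin A during the first 24 h, and cells were collected after 5 days. For the comparison between cell types, ectoderm was grown with serum replacement, A83-01, PNU-74654 and dorsomorphin, endoderm with WNT3A and Activin A, and hPSC in mTeSR1. Cells were opened with 0.05% NP-40 and spun through sucrose, which left the cytoplasm above and a nuclear pellet below. The nuclear pellet was then lysed with urea and detergent, and what stayed in the second pellet was the chromatin fraction. The buffers held 25 uM alpha-amanitin, an inhibitor of RNA polymerase II. A single mesoderm nucleoplasm library is given as values only, since 1 library has no spread; it was matched by its group's name, as its column and its title carry different replicate numbers.

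As background, a transcript is made and spliced at chromatin, released into the nucleoplasm and exported, and its share in each fraction reflects how long it stays at each step. Messages for secreted and membrane proteins are translated on the endoplasmic reticulum, whose membrane is continuous with the outer envelope of the nucleus. Messages for ribosomal proteins begin with a C followed by a run of pyrimidines, the 5′ terminal oligopyrimidine start through which growth signals control their translation. Fractions are relative measurements: in bulk samples fewer molecules per cell and fewer cells cannot be told apart, and neither can a loss from 1 fraction and a gain in the other.

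The chromatin libraries held 4990408 to 8767736 counts and the cytoplasm libraries 13506967 to 17143491, so the chromatin values carry the larger counting error. Across genes, Pearson's r of log2 CPM (read counts scaled to library size) between replicates was 0.953 to 0.972 in chromatin and 0.993 to 0.994 in cytoplasm; genes are not independent replicates. The third chromatin library stood apart in mitochondrial RNA, described further on. No label says that the libraries of a group came from separate cultures, so p-values measure the spread between these libraries, which may be technical. The label was set against mesoderm regulators: 30 of 53 listed genes were in the table, and their summed level was 867 to 1136 CPM in chromatin and 1238 to 1274 in cytoplasm. TBXT, the defining early mesoderm factor, was at or under 0.195 CPM in all 6 libraries and was not tested, and MIXL1, EOMES and MESP1 were not in the table. HAND1, ISL1, MSX2, TBX3, GATA2 and BMP4 were present, as was POU5F1, a pluripotency factor. Listed pluripotency genes summed to 1291 to 2011 CPM in chromatin and 3413 to 3677 in cytoplasm (9 of 15 in the table), and listed amnion and trophoblast genes to 807 to 1267 and 1199 to 1249 (17 of 19). Listed ectoderm genes (8 of 17) summed to 1744 to 2616 and 2756 to 3257, endoderm genes (4 of 15) to 11.3 to 17.0 and 22.6 to 27.9, and endothelial and blood genes (4 of 16) to 47.7 to 110.1 and 31.2 to 35.3. The part of other cell types in the results was not tested.

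Counts of all transcripts of an Ensembl gene were summed, giving 15004 genes, of which 13744 had enough counts to be tested. Levels are given as CPM after TMM scaling, and differences as log2 of chromatin over cytoplasm with the standard error (SE) and an adjusted p from edgeR's quasi-likelihood test. A gene is called at an adjusted p under 0.05. Of the genes tested, 63.2% were called (8686), 32.2% higher in chromatin (4431) and 31.0% lower (4255), and the median SE of the called differences was 0.239. On 70.9% of genes the 3 chromatin values and the 3 cytoplasm values did not overlap. The zero point is set by scaling. With total counts in place of TMM the median of all genes moved to 0.25 and the calls to 5354 higher and 3277 lower, and with the authors' TPM it moved to 0.90 and the calls to 8314 and 1043, 61.6% and 7.72% of the 13506 genes tested on that scale. A difference of less than about that size can change sign with the scale, so each list below is read against all genes, and directions that flip are named.

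The start of 4 messages that were lower in chromatin and 4 that were higher shows a sequence feature frequent among ribosomal protein and translation factor genes. Each line gives 20 bases before the RefSeq transcript start and the first 10 transcribed bases (GRCh38.p14, coding strand), and capitals mark an unbroken pyrimidine run that begins with a C at the start itself.
RPLP0: ggcacgcgcgggcgcgaggcCCTTCTCTCg
EEF1A1: cagtagtcgccgtgaacgttCTTTTTCgca
TPT1: tggggagcggctgagtcggcCTTTTCCgcc
TOMM7: tgtgtggcgcctgcgcacctCCTTTCCCTT
FN1: ccggctcccggcgctcggacgcccgcgccg
LAMA5: cctgccggccgcctggcttcagacccgccg
HSPA5: gagtaggcgacggtgaggtcgacgccggcc
IGF2R: gcggttccggggccgccgctgccgctgtcg
The windows lie on chromosome 12 at 120201102-120201131 (RPLP0, minus strand), chromosome 6 at 73521023-73521052 (EEF1A1, minus), chromosome 13 at 45341174-45341203 (TPT1, minus) and chromosome 7 at 22822840-22822869 (TOMM7, minus). Those of the other group lie on chromosome 2 at 215436059-215436088 (FN1, minus), chromosome 20 at 62367303-62367332 (LAMA5, minus), chromosome 9 at 125241334-125241363 (HSPA5, minus) and chromosome 6 at 159969062-159969091 (IGF2R, plus). The motif searched was a C as the first transcribed base followed by at least 4 bases that are each C or T, on the transcript's strand and at that position only. It stood at 4.04% of the 27305 RefSeq starts and at 5.55% of the 9802 tested protein-coding genes with a matched start. Among ribosomal protein genes 44 of 64 matched starts held it (68.8%), among translation factors 9 of 23 (39.1%), and among the matrix, reticulum and surface genes described below 7 of 106 (6.6%). The last share was near the 5.55% of all, so the 4 lines without the motif do not mark the higher group. Outside the ribosomal protein and translation factor lists, 44.2% of 491 genes with the motif were lower in chromatin and 21% higher (median log2 difference -0.43). Of 9224 such genes without it 32.5% were lower and 29.5% higher (-0.05). The matrix, reticulum and surface genes were kept in this comparison. Among the shortest of 5 equal classes by transcript length 83.2% of 107 with the motif were lower, against 63.5% of 1792 without it. In the longest class 21.9% of 105 were lower, against 10.5% of 1893. The classes between had smaller gaps, from shorter to longer 50.5% against 40.4%, 32.5% against 29.8% and 25.9% against 20.0%. RPS29, RPL4, EEF1G and FTL, also lower in chromatin, had no such run at their RefSeq start, so the 4 lines shown for the lower group are examples that do. A match describes these letters and is no evidence of a working element.

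Messages of the translation apparatus were lower in chromatin than in cytoplasm. Of 80 ribosomal protein genes, 78 were lower and 0 higher, with a median log2 difference of -2.83 against 0.01 over all genes; RPL5 and RPL6 were not called. RPS2, of the small ribosomal subunit, had 799, 412 and 622 CPM in the 3 chromatin libraries and 4648, 5504 and 6098 in the 3 cytoplasm libraries, a log2 difference of -3.15 (SE 0.369, adjusted p = 0.000175). RPLP0, a protein of the ribosomal stalk, had 818, 423 and 656 CPM in chromatin and 4707, 4887 and 5602 in cytoplasm (-3.0, SE 0.359). The groups of both genes were far apart, and in both the second chromatin library was lowest. RPS29 gave the largest fall of the family at -3.73 (SE 0.683, adjusted p = 0.00137), with chromatin at 40.1, 15.7 and 35.5 CPM and cytoplasm at 141, 844 and 221, where the second cytoplasm library was far above its replicates. RPL6 overlapped between the groups, with 2348, 1188 and 1213 CPM in chromatin and 1750, 2169 and 2170 in cytoplasm. Without the first chromatin library both were called, RPL5 at -1.27 (adjusted p = 0.0051) and RPL6 at -0.76 (0.0404). Under TPM 73 of 80 stayed lower. Processed pseudogenes that copy these genes can take part of their reads, so single members are less certain than the family.

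Translation factors were lower as a group, 25 of 31, with a median of -1.19 on the count scale; under TPM the median was -0.13, with 9 lower and 6 higher. EEF1A1, which brings aminoacyl-tRNA to the ribosome, had 7474, 4237 and 7039 CPM in chromatin and 30070, 32560 and 33790 in cytoplasm (-2.36, SE 0.491, adjusted p = 0.00269); under TPM it was -1.24 and not called (adjusted p = 0.103). EEF1G, of the factor that reloads EEF1A1, gave the largest fall at -2.84 (SE 0.334). The 1 member higher in chromatin was EIF4G1, the scaffold of the cap-binding complex, with 665, 811 and 790 CPM in chromatin and 347, 311 and 340 in cytoplasm (1.18, SE 0.202, adjusted p = 0.000968). EIF3A, a large subunit of the initiation factor that holds the small ribosomal subunit, was at 0.51 (SE 0.208, adjusted p = 0.0553), called without the first chromatin library (0.60, adjusted p = 0.0443) or the second chromatin library (0.57, 0.0381). Among genes named here and below, those outside the naming rule given under the processing were chosen after their values were seen.

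Nuclear genes of the respiratory chain and housekeeping genes of the cytosol were lower too. Of 47 respiratory chain genes 46 were lower (97.9%, against 31.0% of all genes) and 0 higher (median -2.21), and 32 stayed lower under TPM. ATP5F1A, the alpha subunit of ATP synthase, was among the mildest at -1.18 (SE 0.252, adjusted p = 0.00307), and under TPM it was -0.03 and not called (adjusted p = 0.932). ATP5ME, a small subunit of the same enzyme, had 3.51, 1.88 and 3.87 CPM in chromatin and 12.4, 81.6 and 19.3 in cytoplasm (-3.63, SE 0.732, adjusted p = 0.00229), again with the second cytoplasm library far above the rest. Of 42 cytosolic genes 35 were lower (83.3%) and 0 higher (median -1.29), while under TPM 8 were lower and 1 higher (-0.21). FTL, the light chain of the iron store ferritin, had 298, 137 and 184 CPM in chromatin and 1959, 2327 and 2529 in cytoplasm (-3.46, SE 0.355). FTH1, the heavy chain, was at -3.27 (SE 0.313), and TMSB4X, which binds actin monomers, at -2.52 (SE 0.322). ACTB, cytoplasmic actin, was at -1.30 (SE 0.355, adjusted p = 0.0106), and under TPM at -0.24 and not called (adjusted p = 0.661). HSPA8, a constitutive chaperone, did not differ beyond its spread at 0.10 (SE 0.331, adjusted p = 0.80), and under TPM it was called higher, at 1.14 (adjusted p = 0.0161).

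The 12 largest falls among genes with a mean of at least 20 CPM and no overlap held 7 messages whose longest annotated transcript was 1182 nt or shorter, RPS29, whose longest is 7062 nt, and 4 noncoding genes. TOMM7, a small subunit of the outer mitochondrial import pore, had 15.8, 5.16 and 10.6 CPM in chromatin and 70.8, 173.5 and 112.0 in cytoplasm (-3.53, SE 0.442). PPDPF, a regulator first described in the pancreas, was at -3.63 (SE 0.211), with 15.95 to 22.8 CPM in chromatin and 208 to 268 in cytoplasm, and it had the smallest SE of the 12. OST4, the small subunit of the enzyme that attaches sugar chains, was at -3.48 (SE 0.338), TMEM256 at -3.51 (SE 0.348) and MAP1LC3C, of the family that coats autophagosomes, at -3.48 (SE 0.287). RN7SL1, the RNA of the signal recognition particle, had 10.9, 4.46 and 7.24 CPM in chromatin and 88.2, 578 and 330 in cytoplasm (-5.49, SE 0.690, adjusted p = 0.000223), and its many near-identical copies make its count uncertain. The pseudogenes ENSG00000264281 (-3.80) and RPL23AP42 (-3.72) completed this group with FTL, RPS29, ATP5ME and the ribosomal DNA row ENSG00000280800 described further on.

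**Figure D1:**
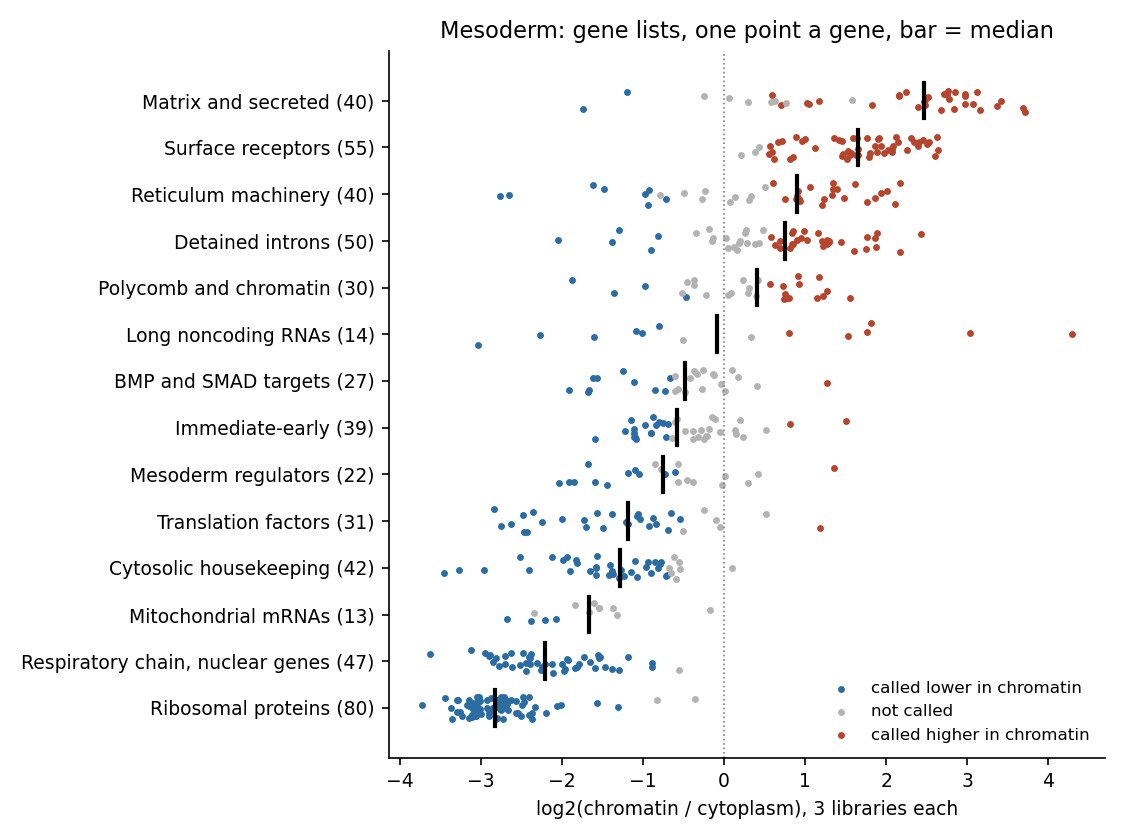
Log2 ratio of chromatin over cytoplasm (horizontal axis) for the tested members of 14 gene lists (number tested in brackets), with 1 point a gene, coloured by call at an adjusted p under 0.05, and a black bar at each list's median. Ribosomal protein genes lie left of 0 with a median of -2.83, and matrix and secreted genes lie mostly right of it with a median of 2.47.

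Messages of secreted, reticulum and cell surface proteins showed the opposite pattern. Of 135 tested genes of these 3 lists 106 were higher in chromatin and 10 lower, with a median of 1.52, and under TPM 121 of 134 were higher and 2 lower. Within them, 31 of 40 matrix and secreted genes were higher and 2 lower (median 2.47), 52 of 55 surface receptors were higher and 0 lower (1.65), and 23 of 40 genes of the reticulum's own machinery were higher and 8 lower (0.90). In 2 of the lists not all members were in the table, 3 of 43 matrix genes and 3 of 58 receptors being missing. Their counts together made up 5.06% ± 0.533 (SD, n = 3) of the chromatin libraries and 1.29% ± 0.0951 (SD, n = 3) of the cytoplasm libraries, without overlap, and 7.90% of the nucleoplasm library. The exact permutation test gave a two-sided p of 0.10 for that difference, which is the smallest that 3 against 3 libraries allow.

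FN1 encodes fibronectin, the scaffold of early matrix, on chromosome 2 at 215360440-215436172 (GRCh38, GENCODE 29). It had 8115, 13200 and 12580 CPM in chromatin and 1375, 1121 and 1292 in cytoplasm, a log2 difference of 3.16 (SE 0.397, adjusted p = 0.000222), and 14360 CPM in the nucleoplasm library. LAMA5, a laminin chain of basement membranes, had 3164, 4733 and 1906 CPM in chromatin and 415, 351 and 400 in cytoplasm (3.07, SE 0.383). Chromatin varied more than cytoplasm in both genes, and no chromatin value came near a cytoplasm value. HSPG2 (perlecan) was at 3.37 (SE 0.360), VCAN (versican) at 3.42 (SE 0.179), AGRN (agrin) at 2.98 (SE 0.341) and COL18A1 at 3.12 (SE 0.290). Among fibrillar and network collagens, COL1A1 had 1114, 1531 and 1115 CPM in chromatin and 263, 215 and 236 in cytoplasm (2.40, SE 0.245), and COL4A1 was at 2.77 (SE 0.186). COL6A3 gave the largest rise of the list at 3.72 (SE 0.416), with 10.1, 18.3 and 29.95 CPM in chromatin and 1.29, 1.77 and 1.37 in cytoplasm. Outside the list, COL7A1, the anchoring fibril collagen, had 182, 135 and 89.5 CPM in chromatin and 11.2, 9.78 and 11.1 in cytoplasm (3.66, SE 0.273), and COL16A1 was at 3.50 (SE 0.252). The members that were lower were IGF2, a fetal growth factor, at -1.74 (SE 0.273, adjusted p = 0.000645), and BGN, a small proteoglycan, at -1.20 (SE 0.329, adjusted p = 0.0111); neither was called under TPM (-0.44 and -0.05), and BGN was not called without the second cytoplasm library (-1.10, adjusted p = 0.055). APOE and IGFBP3, both secreted, had adjusted p-values of 0.101 and 0.83, at 0.58 (SE 0.284) and 0.06 (SE 0.209); APOE was called without the second chromatin library (0.81, adjusted p = 0.0104), and both were called under TPM (1.96 and 1.16).

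The reticulum's machinery gave calls in both directions. HSPA5, the main chaperone of its lumen, had 609, 472 and 1036 CPM in chromatin and 170, 140 and 160 in cytoplasm (2.17, SE 0.305), and 2126 CPM in the nucleoplasm library. HSP90B1 was at 1.61 (SE 0.260), PDIA4, a disulfide isomerase, at 1.93 (SE 0.233), CALR, the lectin chaperone calreticulin, at 1.24 (SE 0.341), and RRBP1, a ribosome receptor of the membrane, at 2.11 (SE 0.191). The translocon gave both directions: SEC61A1, its pore subunit, was higher at 0.94 (SE 0.181), with 272, 270 and 337 CPM in chromatin and 163, 139 and 157 in cytoplasm. Its small subunits were lower, SEC61B at -2.66 (SE 0.303), with 15.0, 6.80 and 16.2 CPM in chromatin and 70.5, 80.2 and 87.3 in cytoplasm, and SEC61G at -2.76 (SE 0.493). Without the third chromatin library the list's median was 0.57, with 23 higher and 12 lower.

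Surface receptors were the most uniform of the 3 lists, with every tested member above 0 (0.21 to 2.65). IGF2R, which carries lysosomal enzymes and clears IGF2, had 254, 461 and 390 CPM in chromatin and 65.3, 54.7 and 56.7 in cytoplasm (2.65, SE 0.250). ITGAV, an integrin chain that binds fibronectin, was at 2.63 (SE 0.243), NOTCH2 at 2.46 (SE 0.248) and CDH1, epithelial cadherin, at 2.02 (SE 0.289). ITGB1, the common integrin beta chain, had 546, 491 and 1011 CPM in chromatin and 257, 248 and 244 in cytoplasm (1.45, SE 0.293), with the third chromatin library highest. FZD7, a Wnt receptor encoded by a single exon, was at 1.63 (SE 0.184). BMPR1A and ACVR2B, receptors for BMP and activin ligands, were 2 of the 3 that were not called, at 0.39 (SE 0.159, adjusted p = 0.0572) and 0.21 (SE 0.253, adjusted p = 0.478); both were called under TPM (1.16 and 1.27), and BMPR1A without the second chromatin library (0.42, adjusted p = 0.034) or the third (0.35, 0.033). The third was TGFBR2, the type II TGF-beta receptor, at 0.43 (SE 0.189, adjusted p = 0.0747), and it was called without the first chromatin library (0.50, adjusted p = 0.0474) and under TPM (1.29).

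**Figure D2:**
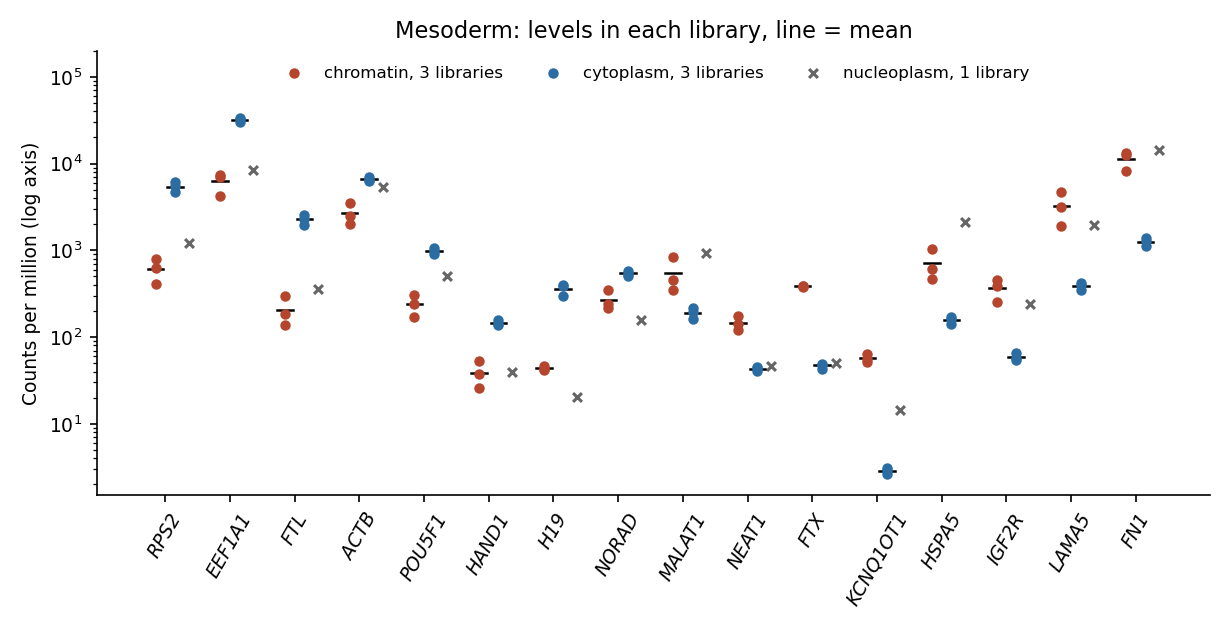
Level of 16 genes in each library in CPM (vertical log axis), with chromatin in red, cytoplasm in blue, the single nucleoplasm library as a cross and a line at each group's mean. From RPS2 to NORAD (whose sign changes under TPM) the cytoplasm values are above the chromatin values, and from MALAT1 to FN1 they are below.

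Length and exon number tracked the difference over all protein-coding genes. In 5 equal classes by the longest annotated transcript, the share higher in chromatin went from 10.1% (207 to 2226 nt) through 21.6%, 26.2% and 37.5% to 51.1% (6005 to 109224 nt), and the share lower from 62.9% through 40.9%, 29.5% and 20.8% to 10.9%. By exon number the share higher went from 11.9% at 1 to 5 exons through 15.6%, 23.8% and 37.5% to 63.1% at 19 to 363 exons. Spearman's rho across 11843 genes was 0.45 for transcript length, 0.49 for exon number and 0.295 for genomic span, and across 11837 genes it was 0.078 for GC content; these are descriptions across genes that share libraries. With TPM, which corrects for length, the same values for length and exon number were 0.461 and 0.514. A correction for length largely cancels in a ratio between fractions of the same gene, so these values are no check on length. Within each length class the matrix, reticulum and surface genes lay above the others: from shortest to longest their medians were 0.03, 0.90, 1.46, 1.65 and 2.40, and those of all other genes -1.12, -0.36, -0.08, 0.22 and 0.57. The shortest class held 10 of these genes and the longest 43, so the medians of the short ones rest on few genes. The lists that were lower in chromatin were not set against other genes within length classes. Their median longest transcript was 1268 nt for the respiratory chain, 1841.5 nt for ribosomal proteins, 2241.5 nt for cytosolic genes and 3718 nt for translation factors.

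**Figure D3:**
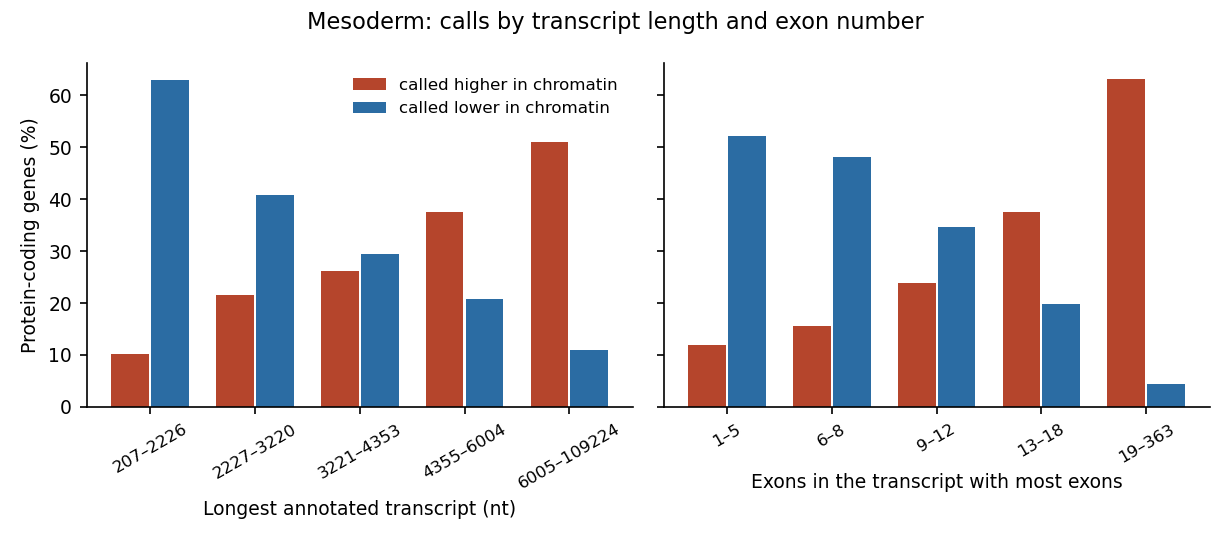
Percent of tested protein-coding genes called higher (red) or lower (blue) in chromatin, in 5 classes by the longest annotated transcript in nucleotides (left) and by number of exons (right). The share called higher goes from 10.1% to 51.1% with length and from 11.9% to 63.1% with exon number.

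Of 898 tested lncRNA genes 395 were higher (44.0%) and 172 lower (19.2%), with a median of 0.65, against 32.2% and 31.0% of all genes. Among them 47 were at or under 3 counts in every cytoplasm library. These passed the filter through chromatin, could be called only as higher, and all were. Another 7 were at or under that limit in every chromatin library. The lncRNA share of counts was 2.98% ± 0.958 (SD, n = 3) in chromatin and 2.68% ± 0.841 (SD, n = 3) in cytoplasm (exact permutation p = 0.80, two-sided), and the groups overlapped. Without the 4 ribosomal DNA rows described further on, an alternative chosen after seeing the data, it was 1.81% ± 0.159 (SD, n = 3) and 1.04% ± 0.0407 (SD, n = 3), without overlap (exact permutation p = 0.10, two-sided). In the list of 21 lncRNAs known from nuclei or early cells, 14 were tested, 6 higher and 6 lower; the list's median of -0.09 was 0.15 with total counts, 0.36 with DESeq2 and 0.97 under TPM, so its sign depends on the setting. KCNQ1OT1, the imprinted antisense RNA that silences its neighbours (chromosome 11, 2608328-2699994, minus strand), had 55.3, 52.1 and 63.3 CPM in chromatin and 2.65, 3.09 and 2.91 in cytoplasm (4.30, SE 0.196, adjusted p = 1.59e-05). FTX, a regulator in the X-inactivation centre (chromosome X, 73946555-74293574), had 391, 378 and 388 CPM in chromatin and 48.2, 49.5 and 43.4 in cytoplasm (3.03, SE 0.176). Both groups of FTX and of KCNQ1OT1 were tight, unlike those of most genes in chromatin. FTX and JPX (0.80, SE 0.165) overlap on opposite strands, KCNQ1OT1 lies across KCNQ1, and use of strand in the counting is not given in the sources used here, so reads of such pairs cannot be told apart.

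MALAT1 and NEAT1, the RNAs of nuclear speckles and paraspeckles, were higher in chromatin by less. MALAT1 had 453, 352 and 842 CPM in chromatin and 163, 194 and 215 in cytoplasm (1.52, SE 0.323, adjusted p = 0.00298), and 940 CPM in the nucleoplasm library. NEAT1 had 140, 121 and 177 CPM in chromatin and 40.8, 44.7 and 43.8 in cytoplasm (1.76, SE 0.186). SNHG14, the long host of the SNORD116 cluster, was at 1.81 (SE 0.264). TUG1 was not called, at 0.33 (SE 0.191, adjusted p = 0.158), and was called without the first chromatin library (0.46, adjusted p = 0.0428) and under TPM (1.43). H19, the imprinted RNA that carries miR-675, went the other way with 41.5, 43.3 and 46.6 CPM in chromatin and 298, 390 and 395 in cytoplasm (-3.04, SE 0.198, adjusted p = 4.37e-05). DANCR was at -2.27 (SE 0.188) and NORAD, which sequesters PUMILIO proteins in the cytoplasm, at -1.02 (SE 0.231). TUNAR (-1.09, SE 0.165) and ESRG (-0.80, SE 0.234), both transcribed in pluripotent cells, were lower, and NORAD, TUNAR and ESRG turned to the other sign under TPM (0.08, 0.06 and 0.28). ESRG was not called without the third cytoplasm library (-0.75, adjusted p = 0.0552). LINC01356 was at -1.60 (SE 0.597, adjusted p = 0.0407) and was not called without the second chromatin library (-1.04, adjusted p = 0.118) or the first cytoplasm library (-1.79, adjusted p = 0.0503). OIP5-AS1 was not called at -0.50 (SE 0.205, adjusted p = 0.057); it was called lower without the third chromatin library (-0.75, adjusted p = 0.000859) and higher under TPM (0.59). MEG3 was at or under 0.821 CPM in all 6 libraries and was not tested.

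All 22 tested genes with symbols of small nucleolar or Cajal body RNAs, grouped after the fit was known, were higher in chromatin (0.94 to 5.72, median 2.42). Without the first chromatin library 20 were. For comparison, 32.2% of all genes and 84.6% of the 175 genes of other, mostly small RNA, types were higher. The group was made from these values, so its count is a description. SNORD116-26 had 222, 298 and 144 CPM in chromatin and 27.0, 28.4 and 28.1 in cytoplasm (2.99, SE 0.269), and SNORA8 was at 3.12 (SE 0.284). SCARNA23, at 2.11 to 3.74 CPM in chromatin and at or under the limit of 3 counts in every cytoplasm library, was at least 15.8-fold higher. It passed the filter through chromatin and could be called only as higher. Reads of such short genes can also come from the intron of the host, and counts do not tell the 2 apart. Of 18 tested host transcripts 5 were higher (27.8%) and 9 lower (50.0%), against 32.2% and 31.0% of all genes (median -0.60). SNHG1 was higher at 1.56 (SE 0.363) with 502, 343 and 155 CPM in chromatin and 106, 118 and 116 in cytoplasm, and SNHG12 at 1.89 (SE 0.323). SNHG29 was lower at -2.88 (SE 0.247), with 95.6 to 129.8 CPM in chromatin and 640 to 953 in cytoplasm. The 5 higher hosts became 3 when either of the first and second chromatin libraries or any cytoplasm library was left out.

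Hosts of microRNAs were few, with 5 of 12 in the table. Of these 2 were higher (40.0%, against 32.2% of all genes) and 0 lower (median 0.70). The count was 1 without the first or second chromatin library or any cytoplasm library, and 4 without the third chromatin library. MIR22HG (chromosome 17, 1711493-1717174) had 9.94, 7.27 and 11.5 CPM in chromatin and 3.33, 2.96 and 3.33 in cytoplasm (1.57, SE 0.273, adjusted p = 0.00106). MIR34AHG (chromosome 1, 9148011-9198906), outside that list, had 19.5, 9.85 and 7.36 CPM in chromatin and was at or under 3 counts in every cytoplasm library, at least 60.8-fold higher. The mature microRNAs they hold were not measured; their RefSeq sequences are shown to identify the hosts, with the seed (bases 2 to 8) in capitals, and the seeds differ.
hsa-miR-22-3p: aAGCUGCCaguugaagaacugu
hsa-miR-34a-5p: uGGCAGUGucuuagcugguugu
MIR205HG, the host of highest level in this list, was not called at 0.34 (SE 0.324, adjusted p = 0.383), and was called without the third chromatin library (0.66, adjusted p = 0.0027) and under TPM (1.17).

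Genes known for introns that are kept in the nucleus were mostly higher in chromatin, 29 of 50 with 5 lower and a median of 0.76. CCNL2, a cyclin linked to splicing, had 1052, 1056 and 502 CPM in chromatin and 167, 155 and 163 in cytoplasm (2.43, SE 0.309, adjusted p = 0.000233). OGT, which attaches N-acetylglucosamine to nuclear proteins, was at 2.17 (SE 0.300), RBM25 at 1.89 (SE 0.287) and SRRM2, a scaffold of nuclear speckles, at 1.44 (SE 0.323). In CCNL2, OGT and RBM25 the third chromatin library was the lowest, and it was still above all cytoplasm values. The 5 lower members were HNRNPA1, HNRNPC, HNRNPK, SRSF3 and TRA2B, genes of RNA-binding proteins. HNRNPA1 had 1010, 733 and 1347 CPM in chromatin and 3668, 4685 and 4447 in cytoplasm (-2.05, SE 0.338), HNRNPC was at -1.38 (SE 0.317) and SRSF3 at -1.30 (SE 0.331); the last pair was not called under TPM (-0.44 and -0.28). TRA2B was at -0.82 (SE 0.219) and HNRNPK at -0.90 (SE 0.313, adjusted p = 0.0316); both turned to the other sign under TPM (0.28 and 0.02), and HNRNPK was called when the third chromatin library was left out but not without the first or the second (-0.79 and -0.66) or any cytoplasm library (-0.84 to -0.92). Transcripts with the intron cannot be told from the spliced form in sums per gene. Assembled isoforms that carry no Ensembl transcript ID made up 23.7% ± 3.9 (SD, n = 3) of the chromatin counts and 12.4% ± 0.86 (SD, n = 3) of the cytoplasm counts, without overlap (exact permutation p = 0.10, two-sided). Transcripts of no Ensembl gene made up 7.12% ± 3.3 (SD, n = 3) and 1.68% ± 0.584 (SD, n = 3), also without overlap, and 1 of them alone was at 69211, 22232 and 28492 plain CPM in chromatin and 38.7 to 115 in cytoplasm. Not all of them were higher in each chromatin library. The next by mean level had 734, 29886 and 992 plain CPM in chromatin and 5892 to 10641 in cytoplasm. The one after it had 1097, 27541 and 1754 in chromatin and 5458 to 11808 in cytoplasm.

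**Figure D4:**
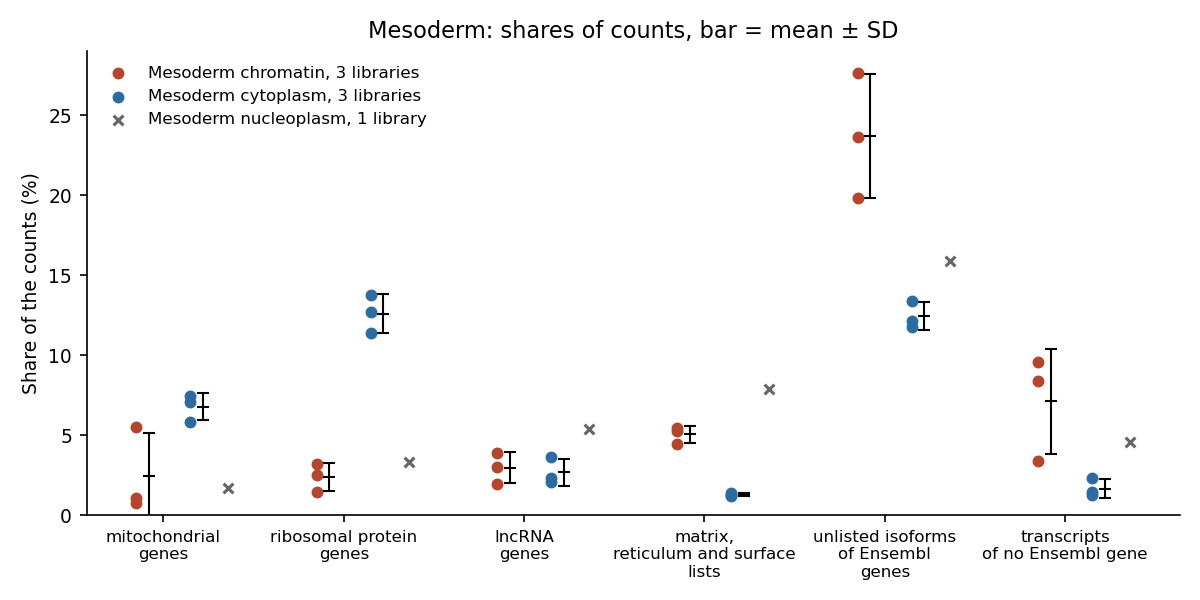
Share of each library's counts (percent, vertical axis) for 6 gene or transcript classes, with a point for each library, bars for the mean ± SD of 3 libraries and a cross for the nucleoplasm library. Ribosomal protein genes take 2.39% in chromatin and 12.6% in cytoplasm, and the lncRNA shares overlap with the ribosomal DNA rows included.

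Lists of developmental regulators and signalling targets had medians on the cytoplasm side on the count scale, and few of their members were called higher. Of 22 tested mesoderm regulators 11 were lower (50.0%) and 1 higher (4.55%), against 31.0% and 32.2% of all genes (median -0.75). Under TPM 2 were lower and 5 higher (0.21, against 0.90 over all genes). HAND1, a factor of heart and extraembryonic mesoderm, had 37.6, 25.6 and 53.5 CPM in chromatin and 138, 143 and 157 in cytoplasm (-1.91, SE 0.257, adjusted p = 0.000303). MSX2, a BMP target, had 47.4, 35.4 and 41.7 CPM in chromatin and 131, 132 and 133 in cytoplasm (-1.68, SE 0.168), and ISL1, of cardiac progenitors and amnion, was at -1.18 (SE 0.201). All 3 genes were separated between the groups in each library, and HAND1 alone of them was still called under TPM, where MSX2 was at -0.55 (adjusted p = 0.0555) and ISL1 at -0.06. SNAI2 was at -2.03 (SE 0.294), LMO2 at -1.85 (SE 0.485), NKX2-5 at -1.60 (SE 0.397) and GATA5 at -1.45 (SE 0.378), and the last 3 were not called under TPM. BMP4 (-0.73, SE 0.168), GATA2 (-0.61, SE 0.214), SNAI1 (-1.05, SE 0.266) and HOXB2 (-1.10, SE 0.284) were lower and turned to the other sign under TPM (0.48, 0.47, 0.08 and 0.12). The GATA2 call (adjusted p = 0.033) was lost without the second chromatin library (-0.57, 0.0744) and without each cytoplasm library in turn (-0.54 to -0.61). PDGFRA, a receptor of paraxial and other mesoderm, was the 1 higher member, with 8.38, 6.80 and 9.99 CPM in chromatin and 4.76, 3.02 and 1.97 in cytoplasm (1.35, SE 0.355).

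The other tested regulators were not called. TBX3 was the nearest to 0 of them at 0.02 (SE 0.145), with 78.8 to 82.4 CPM in chromatin and 75.1 to 82.7 in cytoplasm, and under TPM it was called at 1.14. MEIS1 was at -0.03 (SE 0.157) and called higher under TPM (0.70). MEIS2, its relative, was at -0.39 (SE 0.198, adjusted p = 0.116) and was called without the third chromatin library (-0.54, 0.0194). SALL4, a zinc finger factor of pluripotent cells too, was at 0.42 (SE 0.192, adjusted p = 0.0816) and was called without the first chromatin library (0.54, 0.0316) and under TPM (1.54). WT1 was at -0.85 (SE 0.361, adjusted p = 0.0639) and was called without the second chromatin library (-1.16, 0.0379). HAPLN1, a link protein of the matrix, was at 0.30 (SE 0.297) with 235, 175 and 416 CPM in chromatin and 215 to 236 in cytoplasm, and called under TPM (1.32). FOXC2 (-0.78, SE 0.351), MSX1 (-0.57, SE 0.451), TBX6 (-0.56, SE 0.618) and GATA6 (-0.46, SE 0.317) were at 0.374 to 10.5 CPM. ETV2, OSR1, PRRX1, FOXC1, CDX1 and CDX2 were at or under 1.12 CPM in all 6 libraries and were not tested.

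Targets of BMP and SMAD signalling gave 1 higher (3.7%) and 10 lower (37.0%) of 27 tested (median -0.48). The shares of all genes were 32.2% and 31.0%, so the list departed in its few higher calls more than in its lower ones. Under TPM 14 were higher and 1 lower (0.62, where the median of all genes was 0.90 and 61.6% were higher). The inhibitors of differentiation that BMP induces were lower: ID1 had 464, 242 and 267 CPM in chromatin and 644, 653 and 796 in cytoplasm (-1.11, SE 0.283), ID2 was at -1.67 (SE 0.230) and ID3 at -1.62 (SE 0.238), and none of the 3 was called under TPM (-0.11, -0.55 and -0.47). WNT5B was the higher one, at 1.27 (SE 0.335). Immediate-early genes gave 2 higher (5.13%) and 17 lower (43.6%) of 39 (median -0.58). Under TPM 19 were higher and 0 lower, with a median of 0.42 that was positive but below the 0.90 of all genes. FOS, which is transcribed within minutes of a signal, was higher with 115, 88.8 and 57.9 CPM in chromatin and 31.6, 27.4 and 33.0 in cytoplasm (1.50, SE 0.247, adjusted p = 0.000792), and SPRY4, a feedback inhibitor of FGF signalling, was the other at 0.82 (SE 0.179). EGR1 overlapped between the groups at 0.15 (SE 0.239), and was called under TPM (1.19). BTG1 was lower at -1.59 (SE 0.205), with 15.95 to 25.3 CPM in chromatin and 63.7 to 67.8 in cytoplasm, and ATF4, the stress factor, at -0.87 (SE 0.222); under TPM BTG1 was not called (-0.46) and ATF4 had the other sign (0.36).

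DNA methylation and polycomb genes gave 14 higher (46.7%) and 4 lower (13.3%) of 30 (median 0.40), against 32.2% and 31.0% of all genes. PHC1, of the first polycomb complex, had 842, 1386 and 616 CPM in chromatin and 420, 379 and 382 in cytoplasm (1.27, SE 0.308), and PHC3 was at 1.55 (SE 0.283). DNMT1, which copies methylation after replication, was at 1.15 (SE 0.189) and EZH2, the methyltransferase of the second complex, at 1.22 (SE 0.195). RNF2, the ubiquitin ligase of the first complex, was lower with 14.8, 8.09 and 17.5 CPM in chromatin and 50.6, 51.1 and 45.8 in cytoplasm (-1.88, SE 0.267). Markers of other lineages fell on both sides. POU5F1 had 244, 169 and 306 CPM in chromatin and 977, 910 and 1076 in cytoplasm (-2.04, SE 0.267), LIN28A was at -1.78 (SE 0.276; -0.67 and not called under TPM) and DNMT3B, a methyltransferase of pluripotent cells, was higher at 0.78 (SE 0.217). NES, the intermediate filament nestin, was higher with 836, 928 and 991 CPM in chromatin and 207, 204 and 218 in cytoplasm (2.13, SE 0.205). KRT18, a keratin of simple epithelia, was lower at -1.13 (SE 0.339); it was not called without the third cytoplasm library (-1.01, adjusted p = 0.064) or under TPM (-0.05). Of amnion and trophoblast genes, 2 of 13 were higher and 6 lower (median -0.47). Under TPM their median was 0.45, below the 0.90 of all genes. VGLL1 was at -3.11 (SE 0.292) and ITGB6, an integrin chain, at 1.31 (SE 0.188). GABRP, a receptor subunit, was not called at -0.17 (SE 0.275), was called lower without the third chromatin library (-0.55, adjusted p = 0.00978) and higher under TPM (0.75). FOXA3 (-1.10, SE 0.225; 0.04 under TPM) was the 1 called endoderm gene. RUNX1 (0.87, SE 0.309, adjusted p = 0.0339) and CDH5 (1.86, SE 0.634, adjusted p = 0.0284) were higher, RUNX1 with overlapping groups; RUNX1 was not called without the second or the third chromatin library (0.95 and 0.43) or any cytoplasm library (0.80 to 0.94), and CDH5 without the second or the third chromatin library (1.77 and 1.78) or the second cytoplasm library (1.33).

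Of the 12 with the largest rise among genes with a mean of at least 20 CPM and no overlap, 1 was a protein-coding gene. That was MAMDC4, with 74.8, 46.4 and 24.6 CPM in chromatin and 3.06, 1.77 and 2.31 in cytoplasm (4.34, SE 0.430). GUSBP17, a pseudogene of the lysosomal enzyme GUSB, had 116, 131 and 68.9 CPM in chromatin and 4.15, 2.17 and 2.82 in cytoplasm (5.11, SE 0.341), and reads of its paralogues may be shared with it. The antisense gene ENSG00000254420 was at 6.96 (SE 0.428), with 30.8 to 56.7 CPM in chromatin and 0.136 to 0.513 in cytoplasm, and the intronic gene ENSG00000274093 at 4.77 (SE 0.211). ENSG00000284606 was at 3.99, and ENSG00000290548 (5.50), ENSG00000288349 (5.04), ENSG00000286242 (4.08) and ENSG00000290396 (3.98) have no GENCODE 29 entry. KCNQ1OT1 was also among the 12. By class, 61.7% of 300 pseudogenes were higher and 17.3% lower (median 1.46), as were 54.8% and 13.2% of 310 genes absent from GENCODE 29 (1.15) and 84.6% and 5.71% of 175 genes of other, mostly small RNA, types (2.60). Of these classes, 25 pseudogenes, 16 genes absent from GENCODE 29 and 29 of the other types were at or under 3 counts in every cytoplasm library; they passed the filter through chromatin, could be called only as higher, and all were. The shares are therefore given as a description. Zinc finger genes with a ZNF symbol stood near the middle, with 98 of 415 higher, 78 lower and a median of 0.01.

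Rows that overlap ribosomal DNA had extreme values in both directions. The table held 4 Ensembl lincRNA rows on chromosome 21 that overlap RefSeq copies of the 45S ribosomal RNA gene. ENSG00000280800 (8210384-8211306, over RNA18SN2) had 0 counts in all 3 chromatin libraries and 7551, 9108 and 22570 CPM in cytoplasm, at least 27400-fold lower against a limit of 3 counts per library. ENSG00000280614 (8393419-8394341, over RNA18SN3) had 5886, 5421 and 2118 CPM in chromatin and 8.10, 42.8 and 38.4 in cytoplasm (7.23, SE 0.781), and ENSG00000281181 (8437629-8438551, over RNA18SN1) had 5491, 1646 and 524 and 4.97, 4.60 and 14.1 (8.35, SE 1.03). The nucleoplasm library sided with cytoplasm, at 36010 CPM for ENSG00000280800 and 25.9 for ENSG00000280614. ENSG00000280441 (8380665-8410645, across RNA45SN3) was not called at -0.16, with chromatin at 509, 13400 and 846 CPM. These copies are nearly identical, so how reads were divided between them is uncertain. Summed over the 4 rows, chromatin had 11890, 20470 and 3488 CPM and cytoplasm 11170, 13910 and 30800, and the groups overlapped.

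Mitochondrial mRNAs depended on 1 library. The 13 mRNAs made inside mitochondria encode core subunits of the respiratory chain, and here 4 were called lower in chromatin, 0 higher and 9 were not called, with a median of -1.67. Mitochondrial genes took 0.769% to 5.53% of the chromatin counts (mean 2.47% ± 2.66 SD, n = 3) and 6.79% ± 0.848 (SD, n = 3) of the cytoplasm counts, and 1.69% of the nucleoplasm library. The groups did not overlap (exact permutation p = 0.10, two-sided), but as shares of TPM they did (p = 0.40). MT-CO1, the catalytic subunit of cytochrome oxidase, had 3044, 2083 and 16190 CPM in chromatin and 18970, 22550 and 23190 in cytoplasm (-1.60, SE 0.760, adjusted p = 0.0923). MT-ATP6, of ATP synthase, had 111, 126 and 648 CPM in chromatin and 1494, 1728 and 1402 in cytoplasm (-2.39, SE 0.635, adjusted p = 0.00942). In both genes the third chromatin library was 5 or more times its replicates. Without that library all 13 were lower (median -3.42), MT-CO1 at -3.08 (adjusted p = 0.000263) and MT-ND5, which was at -0.17 (SE 0.492) with it, at -1.06 (0.00386). Without the first or second chromatin library or the second cytoplasm library 1 was lower, without the third cytoplasm library 2, and without the first cytoplasm library 5. The other called genes were MT-ND4L (-2.68), MT-CO2 (-2.21) and MT-ND4 (-2.07), and none of them was called under TPM.

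The difference between fractions in mesoderm was then set against the mean of the same difference in hPSC, ectoderm and endoderm, in 1 fit of 24 libraries over 10689 genes found in all 4 tables. The tables come from a separate transcript assembly for each cell type, so assembly and cell type cannot be told apart. Of these genes 16.1% were called (1723), 6.38% with a larger value in mesoderm (682) and 9.74% with a smaller one (1041). The direction split depends on scaling: total counts gave 1114 larger and 486 smaller, relative log expression factors 899 and 743, DESeq2 1106 and 969, a fit without mitochondrial genes 1006 and 634, and TPM 1037 and 108. Without the second or the third mesoderm cytoplasm library 1051 and 1066 genes were called.

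Mitochondrial mRNAs were the list in which mesoderm stood furthest from the other cell types. All 13 had a smaller chromatin to cytoplasm difference in mesoderm, from -3.19 for MT-CYB to -4.83 for MT-ATP6 (median -3.85). In this fit the list's median stood at -1.55 for mesoderm, 3.80 for hPSC, 0.84 for ectoderm and 2.13 for endoderm. MT-CO1 averaged 7951 CPM in chromatin and 22200 in cytoplasm of mesoderm, against 16700 and 1747 in hPSC, 9404 and 5282 in ectoderm, and 4927 and 1127 in endoderm. MT-ATP6 averaged 330 and 1587 in mesoderm, against 1215 and 53.6 for hPSC, 488 and 234 for ectoderm, and 325 and 74.1 for endoderm. In both genes mesoderm was the cell type with the highest cytoplasm mean. Its chromatin mean lay within the range of the others, but that mean rests on the third chromatin library, far above its replicates in both genes. In the fit of 6 libraries MT-ATP6 was at 647.6 CPM there, against 111.1 and 125.6 in the first and second, which lie under each mean of the other cell types. Of the 13, 12 were called under TPM and 12 without the second mesoderm cytoplasm library, where MT-ATP8 was at -2.78 (adjusted p = 0.0562), and 10 against ectoderm alone, where 13.7% of all genes were smaller. Without the third mesoderm chromatin library all 13 were called and the median was -5.43. How much of this comes from mitochondria left in a fraction was not tested.

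**Figure D5:**
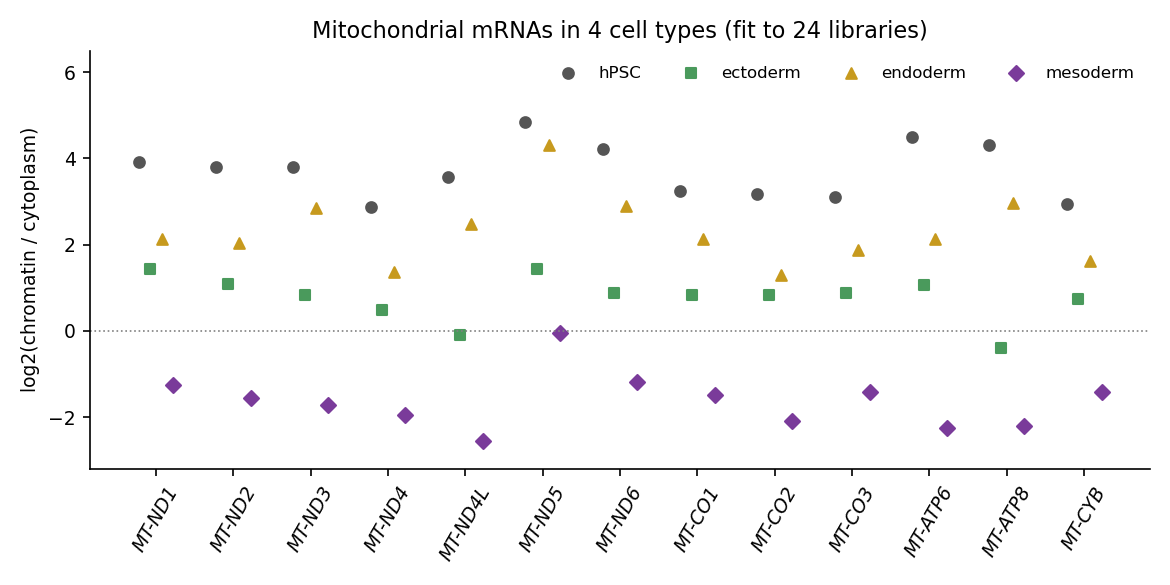
Log2 ratio of chromatin over cytoplasm (vertical axis) of the 13 mitochondrial mRNAs in 4 cell types, from 1 fit to 24 libraries with 3 libraries of each fraction. Mesoderm points lie below 0 and below the points of the other cell types for each gene, with a list median of -1.55 against 3.80 in hPSC.

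The matrix, reticulum and surface lists had few calls against the mean of the other cell types. Of their 122 genes present in all 4 tables, 2 had a larger value and 5 a smaller one in mesoderm, with a median difference of -0.09 against -0.08 over all genes. Against single cell types each list had more calls, and so had all genes, with 2460 to 2573 called in place of 1723. Against ectoderm, 26 of 33 matrix genes, 22 of 49 surface receptors and 15 of 40 reticulum genes were larger in mesoderm (10.0% of all genes were). Against endoderm, 19 of 33 matrix genes, 14 of 49 receptors and 4 of 40 reticulum genes were smaller (12% of all genes). Against hPSC 9 of 33, 9 of 49 and 16 of 40 were (16.1%). The reticulum genes against endoderm and the receptors against hPSC were near the share of all genes. The matrix list's median was 2.64 for mesoderm, between 1.45 for ectoderm and 3.04 for hPSC, and 3.75 for endoderm. FN1 was at 3.29 for mesoderm, 1.69 for ectoderm, 3.59 for hPSC and 5.02 for endoderm, and its difference from the mean was -0.14 (SE 0.241, adjusted p = 0.743). Ribosomal protein genes had smaller values in 26 of 80 (median -0.68), a count that was 11 with total counts, 14 with relative log expression factors or without mitochondrial genes, and 0 under TPM. Against single cell types 50 were smaller than in hPSC, 24 than in ectoderm and 0 than in endoderm, where 2 were larger (median -0.11). Leaving out 1 library moved the 26 to between 7 (second mesoderm cytoplasm) and 45 (first hPSC cytoplasm); the count was 8 without the third mesoderm cytoplasm or second mesoderm chromatin library, 40 without the first mesoderm chromatin library, and 14 to 31 without any of the others.

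The 6 genes with the largest positive difference had 1 to 5 transcripts each in the mesoderm table. RPS6KA3, a growth factor kinase, was at 8.64 (SE 0.987), with 3.897, 2.81 and 1.25 CPM in mesoderm chromatin and 0 counts in each cytoplasm library, at least 13.2-fold higher; the mesoderm table held 1 isoform of it, without an Ensembl transcript ID. MIR34AHG was at 5.19 (SE 0.840) and also had 1 such isoform; under TPM neither was called (1.34 and 0.42). ZNRF3, a ubiquitin ligase that removes Wnt receptors, was at 4.99 (SE 0.349), with 20.3, 14.5 and 18.97 CPM in mesoderm chromatin and 0.171 to 0.263 in cytoplasm, from 4 isoforms without an Ensembl transcript ID. LIMK1, an actin regulator, was at 4.46 (SE 0.389), but its level in mesoderm was 0.232 to 2.87 CPM as group means against 65.4 to 160 in the other cell types. U2AF1, which recognises the 3′ splice site, was at 4.18 (SE 0.646) and was not called against hPSC (0.44) or ectoderm (0.49) alone; endoderm chromatin was at 0. The ribosomal DNA rows ENSG00000280614 (5.44) and ENSG00000280800 (-24.97) stood at the 2 ends, and the first was not called against hPSC (3.79) or ectoderm (2.34) alone.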

How the data were processed

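RNA of fractionated H1-derived cells was sequenced after library preparation with NEBNext Ultra, per the labels' protocols. The authors deposited, for each cell type, 1 table of read counts and 1 of TPM (a relative abundance corrected for transcript length) for assembled transcripts. STAR, RSEM and hg38 are named in the submitters' processing notes without a role or version, and the counting of strand is not given in the sources used here. In mesoderm, 36407 transcripts were summed to 15004 Ensembl genes, versions dropped; 189 transcripts of no Ensembl gene (1.24% to 9.6% of a library's counts) stayed out of tests and library sizes, and 1 column that matches no sample was not used.

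Counts of the 6 libraries were fitted with edgeR 4.0.16 (R 4.3.3), with TMM scaling, filterByExpr at a minimum count of 10, and quasi-likelihood tests with Benjamini-Hochberg adjustment over all 13744 genes. A fit of 24 libraries, with cell type, fraction and their interaction, gave the difference from the other cell types. Shares of counts were compared by a two-sided exact permutation test over libraries. Alternatives were total counts, relative log expression and upper-quartile factors, no filter, DESeq2 1.42.0, limma 3.58.1 on log2(TPM + 1), no mitochondrial genes, a replicate block, all 10 mesoderm libraries and leaving out each library. A pseudocount of 1 makes TPM differences of low genes too small.

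Tested on simulated counts for these 13744 genes, the fit called 39 of 100 genes changed 2-fold, 96 of 100 changed 4-fold, and 10 of 13544 unchanged genes. Few genes were changed in the simulation, while 63.2% were called in these data. The adjusted p depends on that part, so the shares found in the simulation do not carry over to this comparison. At the depths here 3 counts, the limit used for a count of 0, equal 0.379 to 0.656 CPM in chromatin and 0.178 to 0.227 in cytoplasm; limits and intervals cover counting error only. Gene types, coordinates, lengths and exons came from GENCODE 29 (97.1% of genes matched), and start and microRNA sequences from RefSeq (GRCh38.p14).

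The members and gene lists were chosen with earlier results of these data known. The genes named are the 12 largest rises and falls with a mean of at least 20 CPM and no overlap, the 6 largest differences from other cell types in each direction, the highest, most raised and most lowered member of each list, all measured members of the lists of nuclear lncRNAs, mitochondrial mRNAs and mesoderm regulators (1 regulator is not reported here), and others chosen after their values were seen. Classes of proteins by sequence were planned and were not analysed here.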

Additional observations from a re-analysis of the deposited data

Results flagged for a closer look

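The difference between chromatin and cytoplasm in mesoderm departed from the mean of hPSC, ectoderm and endoderm in 1723 of 10689 genes, by the interaction test in edgeR at an adjusted p under 0.05. Among them were all 13 mitochondrial mRNAs, each smaller in mesoderm on the log2 scale. The genes of ATP synthase were at -4.83 (MT-ATP6) and -4.50 (MT-ATP8), and those of cytochrome oxidase at -3.55 (MT-CO1), -3.85 (MT-CO2) and -3.38 (MT-CO3). The subunits of complex I were at -3.75 (MT-ND1), -3.86 (MT-ND2), -4.21 (MT-ND3), -3.52 (MT-ND4), -4.54 (MT-ND4L), -3.58 (MT-ND5) and -3.86 (MT-ND6), and cytochrome b (MT-CYB) was at -3.19. The third mesoderm chromatin library held 5.53% mitochondrial counts against 0.769% in the lowest of its replicates, and its part in the result is given by the median without it, -5.43.

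The other genes that stood out by the same test were RPS6KA3 (8.64), ENSG00000280614 (5.44), MIR34AHG (5.19), ZNRF3 (4.99), LIMK1 (4.46) and U2AF1 (4.18), each larger in mesoderm, and ENSG00000280800 (-24.97), smaller in mesoderm. The value of ENSG00000280800 comes from a gene at 0 counts in mesoderm chromatin and is not a bound. RPS6KA3 had 0 counts in each mesoderm cytoplasm library and MIR34AHG at most 3, so their values are not bounds either. Over the 6 mesoderm libraries the means of RPS6KA3, LIMK1, MIR34AHG and ZNRF3 were 1.33, 1.38, 6.15 and 9.07 CPM. The tables of the 4 cell types hold different numbers of transcripts of RPS6KA3, MIR34AHG, ZNRF3, LIMK1 and U2AF1, and the part of that in the differences was not tested.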

How the results depend on the processing

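The count of genes called between mesoderm chromatin and cytoplasm (8686) stayed within 1.5 times under each alternative run, from 5879 when at least a 2-fold change was asked for, and 7128 without the third cytoplasm library, to 9949 without the third chromatin library. The count in the difference from other cell types (1723) was 1145 with TPM and 423 at 2-fold or more, and leaving out 1 library gave 1051 to 2140. The lncRNA share difference (0.292 percentage points) ran from -0.172 without the second chromatin library, with -0.002 without the first cytoplasm library, to 0.785 without the third chromatin library, and was 0.764 without the ribosomal DNA rows. Of the genes named, 14 changed sign under TPM, where the median of all genes was 0.90: GABRP 0.75, MEIS1 0.70, OIP5-AS1 0.59, BMP4 0.48, GATA2 0.47, ATF4 0.36, ESRG 0.28, TRA2B 0.28, HOXB2 0.12, SNAI1 0.08, NORAD 0.08, TUNAR 0.06, FOXA3 0.04 and HNRNPK 0.02; the cause was not tested. Over all named genes and alternatives, 3031 values kept direction and side of the threshold, 75 lost the call and 69 gained it.

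Whether the replicate numbers pair the libraries is not given by the labels, and 3 libraries per fraction cannot settle it. The deviations of same-numbered chromatin and cytoplasm libraries correlated at -0.191, -0.181 and -0.056, and no library correlated best with its own number. With a replicate block 8077 genes were called (4063 higher, 4014 lower), 12 of 13 mitochondrial mRNAs among the lower ones, and 1153 (431 larger, 722 smaller) in the difference from other cell types. Depth limits low genes most in chromatin, whose smallest library had 4990408 counts.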

Other observations

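The single mesoderm nucleoplasm library, which enters no test, did not lie between the fractions for many genes. FN1 was at 14360 CPM there, above both fractions, as were HSPA5 (2126 CPM) and HSP90B1 (3001 CPM), reticulum chaperones. RPS2 (1200 CPM), EEF1A1 (8529 CPM) and FTL (360 CPM) lay between chromatin and cytoplasm. FTX (50.6 CPM), KCNQ1OT1 (14.4 CPM) and CCNL2 (223 CPM) were nearer to cytoplasm than to chromatin, and H19 (20.6 CPM) was below both. These values are plain CPM without TMM scaling.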
